A study of Mus musculus with 43 samples.

Results

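The antibody genes of epididymal white adipose tissue, a visceral fat pad, were followed in RNA-seq libraries of male mice. Members were the rows that the count table assigns to variable, constant, joining or diversity segments of antibody genes and that held at least 50 counts summed over the 43 libraries. This took 185 of 264 such rows, of 56748 rows in all. The members were 164 variable, 12 constant and 9 joining genes, and 0 diversity genes reached the minimum. The members were thus chosen by their summed counts, which are given as a description only. Just inside the minimum were Igkv5-37 with 50 counts, Igkv4-62 with 54 and Igkv7-33 with 55, and just outside it were Ighv1-62-3 with 48, Igkv9-129 with 46 and Ighv7-4 with 45. The 79 rows left out held 750 counts together, 0.042% of the antibody counts, and 31 of them held none.

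The HFD group (10 libraries) was fed a diet of 60% fat. The SZ-A groups were on that same high-fat diet and received SZ-A, the alkaloids of Ramulus Mori (Sangzhi), a mulberry twig drug, at 200 (9 libraries), 400 (8 libraries) or 600 (9 libraries) mg/kg/day. The SD group (7 libraries) had a diet with 10% fat. No strain, age or genotype is stated in the labels used here. The labels number the libraries of a group as replicate biosamples but do not tie them to animals. A p-value thus weighs a group difference against the spread of these libraries, which may be technical in part.

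An antibody is built of heavy and light chains, and a light chain is either kappa or lambda. Each B cell joins a variable segment to a joining segment (and, in heavy chains, a diversity segment between them). A clone and its descendants thus share a variable gene, but unrelated clones can use the same one. The constant gene sets the class. Ighm encodes IgM and Ighd IgD of naive B cells. Ighg1, Ighg2b, Ighg2c, Ighg3, Igha and Ighe encode the IgG, IgA and IgE chains made after class switching. Plasma cells, the secreting end stage, hold far more antibody mRNA per cell than B cells do. Visceral fat is known to hold B cells, among them B-1 cells, which make natural IgM.

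Of the members, 92 lay in the heavy chain locus on chromosome 12, 88 in the kappa locus on chromosome 6 and 5 in the lambda locus on chromosome 16, at 113218450 to 115964081, 67586697 to 70703950 and 18880368 to 19079609 as the files give the positions. The 3' ends of 6 variable genes are shown because these genes led their libraries in the results below: the first 2 pairs had the highest shares in several libraries and the last pair dominated 1 library. The capitals TGT mark the codon of the conserved cysteine after which the third complementarity-determining region, the most variable part of the binding site, begins. The sequences are from GENCODE M21 on GRCm38, the last 75 bases of each germline gene, and the rearranged sequences in these mice were not analysed here.
Ighv11-2: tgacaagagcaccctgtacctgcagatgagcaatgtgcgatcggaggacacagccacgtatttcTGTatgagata
Igkv14-126: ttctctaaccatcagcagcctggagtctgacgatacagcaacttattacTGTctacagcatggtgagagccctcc
Ighv1-53: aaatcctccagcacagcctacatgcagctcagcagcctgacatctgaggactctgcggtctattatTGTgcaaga
Igkv3-2: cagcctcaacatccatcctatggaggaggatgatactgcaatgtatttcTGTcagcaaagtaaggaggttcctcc
Ighv14-4: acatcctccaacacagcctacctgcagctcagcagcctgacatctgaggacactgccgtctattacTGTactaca
Igkv5-43: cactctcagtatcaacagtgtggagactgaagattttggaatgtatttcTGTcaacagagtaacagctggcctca
Their positions are chr12:114048241-114048315 on the minus strand, chr6:67896568-67896642 on the plus strand, chr12:115158403-115158477 on the minus strand, chr6:70698993-70699067 on the plus strand, chr12:114176438-114176512 on the minus strand and chr6:69823355-69823429 on the minus strand, in the order of the list. After the capitals, Ighv11-2 has 8 bases, the other two heavy chain genes 6 and each kappa gene 23. The joining segment follows directly in kappa chains, and after a diversity segment in heavy chains. The joining member with the most counts in each locus is shown because joining segments complete the region. Ighj4 had 599 counts over all libraries and lies at chr12:113428514-113428567 on the minus strand, and Igkj5 had 440 counts and lies at chr6:70723886-70723923 on the plus strand. Their capitals mark the start of the tryptophan or phenylalanine motif that ends the region.
Ighj4: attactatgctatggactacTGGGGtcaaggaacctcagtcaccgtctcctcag
Igkj5: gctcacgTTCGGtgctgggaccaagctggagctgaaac

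Variable genes are copies of each other, and reads of one can be counted for another. Over 47 variable genes named by rule, the identity to the nearest other variable member had a median of 94.9%, and 23 were at least 95% identical to it. Each nearest gene was a member, so closer copies outside the members are not covered. Among the members, the nearest to Ighv11-2 was Ighv5-12, at 74.5%. Igkv14-126 was 91.6% identical to Igkv14-111, Igkv3-2 92.8% to Igkv3-1 and Ighv1-53 95.4% to Ighv1-72. Ighv14-4 (97.4% to Ighv14-1) and Igkv5-43 (98.4% to Igkv5-45) have closer copies, so their counts are less certain.

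Total counts were 32.7 to 44.3 per library in units of 1e6, with a median of 37.6. Levels of single genes are normalised CPM (counts per 1e6 of the library total after TMM scaling), and sums over the antibody genes are CPM of the library total. Adipocyte markers summed to 2009 to 40574 normalised CPM, so all libraries held fat, and the lowest was an SZ-A 400 library. In 4 libraries (SZ-A 400 libraries 3 and 6, SZ-A 600 library 6 and SD library 4) at least 100 genes had over 20 times the median of all libraries, and they are called libraries with RNA of another tissue. The libraries also fall into 2 sets by the share of small noncoding RNA, which the labels do not mention: set 1 held 5 libraries of each high-fat group and 2 of SD, and set 2 held the other 21. Values within the sets are given beside the pooled ones for levels, class and leader shares, tests, cell lists and pathway lists.

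Antibody genes took 0.00522% to 1.46% of the counts of a library, with a median of 0.0424%. In the HFD group the summed level was 282 CPM in the lowest library, 673 at the median and 4825 in the highest. It was 199, 553 and 14598 CPM with SZ-A 200, 52.2, 634 and 2805 CPM with SZ-A 400, and 138, 246 and 506 CPM with SZ-A 600. It was 108, 416 and 1371 CPM in the SD group. The SZ-A 600 libraries had the narrowest range: 9 of 9 lay below the HFD median, 6 below the lowest HFD library, and 6 of 10 HFD libraries lay above the highest of them. The other groups overlapped broadly, with 7 of 10 HFD libraries above the SD median and 3 above the highest SD library. Within set 1 the medians were 529 (HFD), 424 (SZ-A 200), 643 (SZ-A 400), 264 (SZ-A 600) and 375 (SD) CPM, and within set 2 they were 817, 561, 203, 185 and 539 CPM in the same order. In such bulk samples, fewer cells of a type and less RNA per cell cannot be told apart.

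A few libraries held much of all antibody RNA. SZ-A 200 library 8 alone held 29.0% of the antibody counts of the series, and with HFD libraries 4 and 7 it held 48.9%. The number of members with at least 1 count was also counted. It was 31, 90.0 and 176 in the lowest, median and highest HFD library, 33, 104 and 172 with SZ-A 200, 28, 96.5 and 152 with SZ-A 400, 45, 58.0 and 86 with SZ-A 600, and 32, 111 and 143 with SD. No SZ-A 600 library reached the median of any other group.

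**Figure D1:**
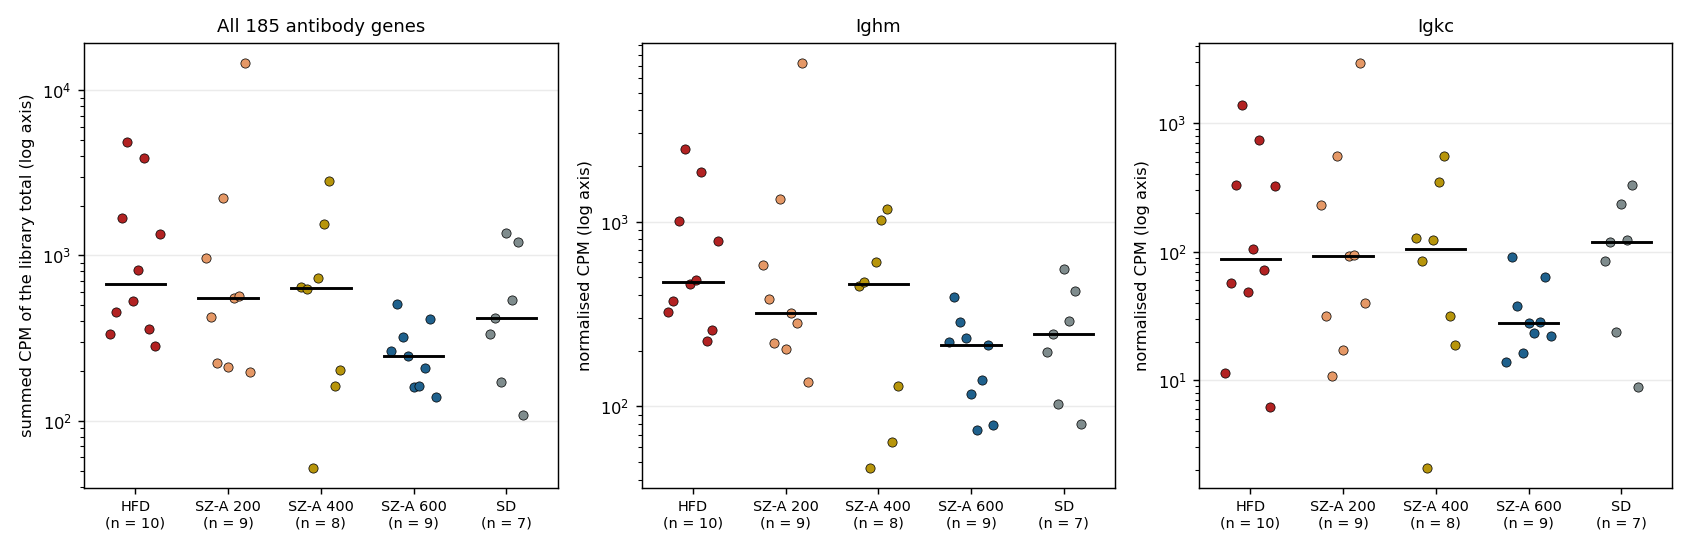
Summed antibody genes (CPM of the library total), Ighm and Igkc (normalised CPM) in each library by group, on log axes; points are libraries and bars are medians. The SZ-A 600 libraries lie between 138 and 506 CPM in the sum, while SZ-A 200 library 8 reaches 14598 CPM.

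Heavy chain genes took the larger part of the antibody counts, 74.1% at the median of the 43 libraries (59.8% to 95.5%). Group medians were 76.6% (HFD), 73.4% (SZ-A 200), 74.6% (SZ-A 400), 77.1% (SZ-A 600) and 64.0% (SD), with overlapping ranges. Per kb of gene length the heavy to light ratio of the constant genes was 1.08 at the median and 0.550 to 8.63 over the libraries. Group medians of that ratio were 1.22, 0.911, 1.14, 1.24 and 0.652 in the same order. Variable genes took 1.63% to 18.4% of the antibody counts. The kappa variable to constant ratio per kb was 0.586 at the median (0.270 to 0.899), and the ratio of heavy variable genes to Ighm varied more, 0.225 at the median (0.0262 to 0.893). In some libraries with little antibody RNA, Ighm was high beside Igkc and the heavy variable genes. The Ighm to Igkc ratio per kb was 11.8 in HFD library 9 and 7.94 in HFD library 1, against 0.499 in HFD library 4. The heavy variable to Ighm ratio was 0.0403, 0.0262 and 0.566 there. SZ-A 600 library 9, also low in antibody RNA, had 1.00 and 0.326. How far this shapes the class shares below was not tested.

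Ighm was the main constant gene of the heavy chain in every library. It had 226 normalised CPM in the lowest HFD library, 471 at the median and 2476 in the highest, 135, 318 and 7236 with SZ-A 200, 46.5, 459.6 and 1168 with SZ-A 400, 74.1, 214 and 392 with SZ-A 600, and 80.0, 245 and 553 with SD. Per kb it made up 94.9% of the heavy constant genes at the median of all libraries, and group medians were 95.5% (HFD), 96.5% (SZ-A 200), 93.3% (SZ-A 400), 92.0% (SZ-A 600) and 96.4% (SD). The lowest share, 55.3%, was in SD library 6. Ighd, the IgD gene, had medians of 2.31, 1.83, 3.25, 2.07 and 3.10 normalised CPM in that order. HFD library 7 was apart with 47.9 normalised CPM of Ighd, against at most 12.3 in any library of another group. That library also had Cr2 and Fcer2a, genes of mature B cells, both at 17.2 normalised CPM, and Glycam1, a gene of lymph node venules, at 5.47, while Glycam1 was at 0 in the other 9 HFD libraries. The part of lymphoid tissue in that value was not tested.

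The switched classes were a small and uneven share. Together they made up 4.09% (HFD), 3.15% (SZ-A 200), 6.18% (SZ-A 400), 6.56% (SZ-A 600) and 3.27% (SD) of the heavy constant genes per kb at the group median. The sets differed here: the medians were 3.29%, 3.52%, 4.01%, 4.73% and 2.43% within set 1 and 5.70%, 2.53%, 11.3%, 10.0% and 3.39% within set 2, in the same order. With SZ-A 600 the switched share was 0.566% to 6.56% in set 1 and 9.30% to 14.3% in set 2, so the higher medians of SZ-A 400 and SZ-A 600 lay in set 2. Igha alone had median shares of 1.83% (HFD), 1.76% (SZ-A 200), 1.62% (SZ-A 400) and 0.458% (SZ-A 600) within set 1, where the 2 SD libraries had 0.609% and 2.38%. Within set 2 they were 0.600%, 1.28%, 6.14% and 7.56%, against 0.293% in SD. Igha led the switched classes in 24 libraries, Ighg2b in 7, Ighg2c in 6, Ighg1 in 4 and Ighg3 in 2. Igha, the IgA gene, led in 6 of 10 HFD, 6 of 9 SZ-A 200, 4 of 8 SZ-A 400, 7 of 9 SZ-A 600 and 1 of 7 SD libraries. It took 15.3% of the heavy constant genes in SZ-A 400 library 7, 12.8% in SZ-A 200 library 7 and 11.0% in SZ-A 600 library 8. Single libraries were rich in 1 IgG gene. Ighg2c, the IgG2c gene, took 42.3% in SD library 6 (225 normalised CPM) and 9.15% in SD library 7. Ighg1, the IgG1 gene, took 18.1% in HFD library 8 (70.1 normalised CPM), and its highest level was 151 normalised CPM in HFD library 4. Ighg2b, the IgG2b gene, took 7.49% in SZ-A 400 library 7 and 7.36% in SZ-A 200 library 1, and Ighg3 at most 3.34%, in SZ-A 600 library 2. Ighe, the IgE gene, was at 0 in 8 of 10 HFD, 6 of 9 SZ-A 200, 6 of 8 SZ-A 400, 8 of 9 SZ-A 600 and 6 of 7 SD libraries, with at most 3.04 normalised CPM in HFD library 4, and was too low to be tested.

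**Figure D2:**
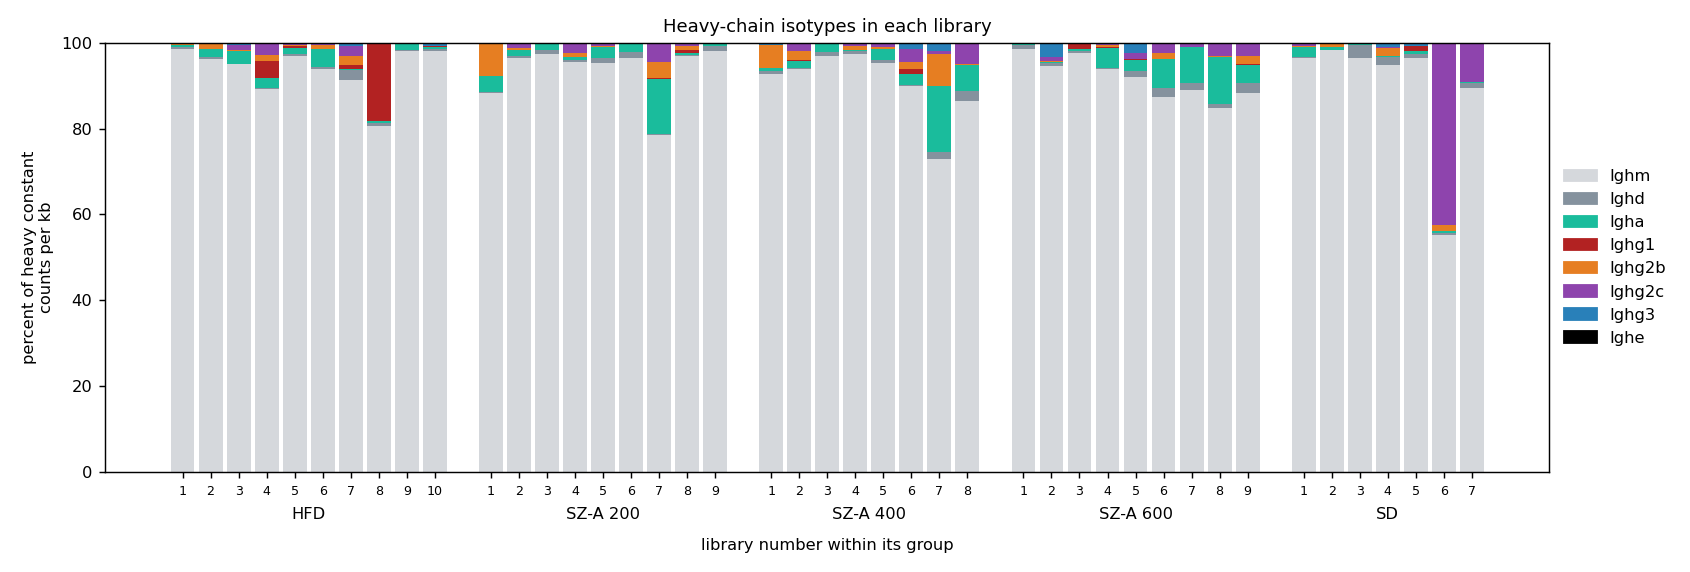
Share of each heavy constant gene per kb in each library, in percent of the summed heavy constant genes, with libraries numbered within their group. Ighm fills most of every bar, and Ighg2c in SD library 6 (42.3%) and Ighg1 in HFD library 8 (18.1%) stand out.

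Igkc, the only kappa constant gene, had 6.19, 88.6 and 1401 normalised CPM in the lowest, median and highest HFD library, 10.8, 92.5 and 2951 with SZ-A 200, 2.09, 105 and 553 with SZ-A 400, 14.0, 28.1 and 91.3 with SZ-A 600, and 8.92, 118 and 331 with SD. All SZ-A 600 values lay below the SZ-A 200, SZ-A 400 and SD medians, and ranges of all groups overlapped. Lambda constant genes were a small part of the light chain, 4.86% per kb at the median of all libraries, and 3.25%, 3.72%, 6.58%, 4.86% and 6.32% at the medians of HFD, SZ-A 200, SZ-A 400, SZ-A 600 and SD. The exceptions were SZ-A 600 library 1 with 48.6% and HFD library 9 with 28.3%. Iglc1 led the lambda genes in 23 libraries, Iglc2 in 16 and Iglc3 in 4. The lambda variable genes Iglv1 and Iglv2 had highest levels of 53.9 and 9.18 normalised CPM, in an SZ-A 200 and an SZ-A 400 library.

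Single variable genes took large shares of their libraries. Per kb, the leading heavy variable gene held 28.4% (HFD), 23.1% (SZ-A 200), 24.2% (SZ-A 400), 32.3% (SZ-A 600) and 23.7% (SD) of all heavy variable counts at the group median, and the leading kappa gene 29.9%, 24.8%, 25.0%, 26.4% and 26.4%. Within set 1 the heavy medians were 22.2%, 23.1%, 22.4%, 32.3% and 12.9% and the kappa medians 28.5%, 24.8%, 30.4%, 26.4% and 18.5%, and within set 2 they were 31.9%, 26.3%, 30.8%, 37.0% and 29.7%, and 31.4%, 20.0%, 17.2%, 28.4% and 27.4%. A single heavy gene held at least 25% in 23 of 43 libraries and at least 50% in 4, and a single kappa gene did so in 24 and 5 libraries. The leader differed between libraries: 22 heavy and 18 kappa genes led at least 1 library, and 15 and 11 of them led only 1. Ighv11-2 led 8 libraries, Ighv1-53 led 6, and Ighv1-26 and Ighv3-6 led 4 each. Igkv14-126 led 11 libraries and Igkv3-2 led 9. By the median share over all libraries Ighv11-2 (5.96%), Ighv3-6 (3.35%), Ighv1-26 (2.72%), Ighv1-9 (1.73%) and Ighv1-55 (1.70%) came first among the heavy genes. Among the kappa genes these were Igkv14-126 (9.80%), Igkv1-117 (2.79%), Igkv1-110 (2.52%), Igkv3-2 (1.74%) and Igkv4-59 (1.31%).

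HFD library 8 was the most dominated. Ighv14-4 held 130 of its 141 heavy variable counts (92.2%, exact 95% interval 86.5% to 96.0%), and Igkv5-43 held 397 of its 592 kappa variable counts (67.1%, 63.1% to 70.8%). It is also the library rich in Ighg1. Intervals cover counting error only. SZ-A 200 library 8, with the most antibody RNA, had Igkv3-2 at 32144 of 57529 kappa variable counts (55.9%) and Ighv1-53 at 13196 of 35478 heavy variable counts (37.2%). SZ-A 600 library 1, the one rich in lambda, was led by Ighv1-22 (85 of 163 counts, 52.1%, 44.2% to 60.0%) and Igkv1-110 (111 of 188, 59.0%, 51.7% to 66.1%). SZ-A 200 library 3 was led by Ighv11-2 (36 of 69) and Igkv14-126 (94 of 155), and Ighv1-9 held 134 of 236 counts in SZ-A 600 library 7. HFD libraries 4 and 7, also rich in antibody RNA, were led in the heavy chain by Ighv1-26 with 13.3% and 19.4% of the counts. Their kappa leader was Igkv3-2, as in SZ-A 200 library 8, with 34.6% and 40.5% of the counts. Libraries with little antibody RNA gave uncertain leaders: in SZ-A 400 library 3 the leader Ighv9-1 had 4 of 18 counts (6.41% to 47.6%).

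**Figure D3:**
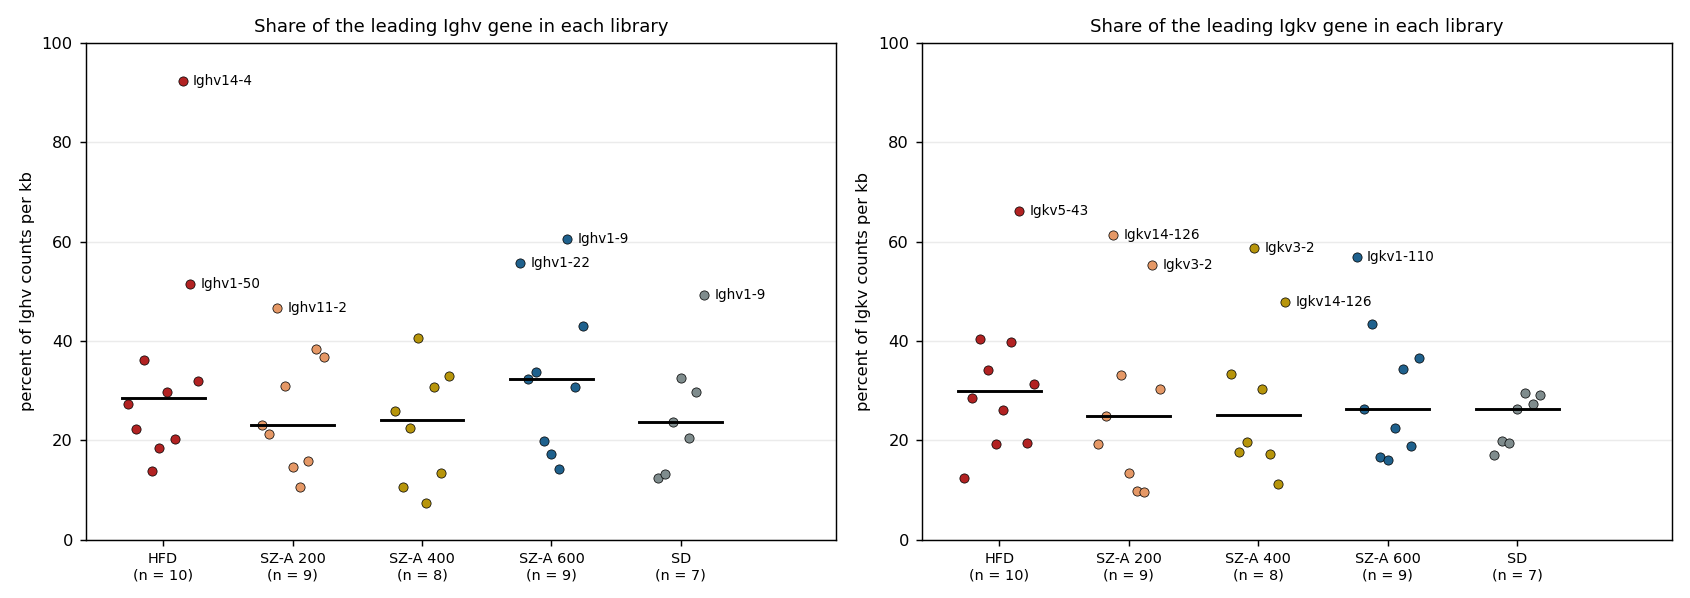
Share of the leading heavy (left) and kappa (right) variable gene in each library by group, in percent of counts per kb; points are libraries and bars are medians. Most leaders hold less than 50%, and Ighv14-4 in HFD library 8 is the highest at 92.3%.

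The heavy and kappa genes that led most often went together across libraries. Among the 35 libraries with at least 100 counts in both segments, the share of Ighv11-2 and that of Igkv14-126 had Pearson r = 0.92 and Spearman rho = 0.94 (permutation p = 1e-05 each, two-sided, the smallest that 100000 resamples can give; adjusted over 5 relations 1.25e-05 and 1e-05). Without the 2 libraries farthest from the median, SZ-A 600 library 3 and SZ-A 400 library 1, r was 0.905, and it was 0.971 and 0.932 within library sets 1 and 2. Within the groups r was 0.981 (HFD, n = 8), 0.872 (SZ-A 200, n = 6), 0.900 (SZ-A 400, n = 7), 0.922 (SZ-A 600, n = 8) and 0.973 (SD, n = 6), with no test within groups. This pair had the highest rho of 1440 pairs of 32 heavy and 45 kappa genes, and the pair Ighv12-3 and Igkv4-91 came second with rho 0.769. Both pairs are known from mouse B-1 cells, in antibodies that bind phosphatidylcholine. Ighv1-53 and Igkv3-2 came next, with rho = 0.746 (permutation p = 1e-05) and r = 0.602 (permutation p = 7.1e-04). Without SZ-A 200 library 8 and HFD library 3, its r was 0.403, and within the groups it was 0.982 (SZ-A 200, n = 6), 0.944 (SD, n = 6), 0.466 (HFD, n = 8), 0.275 (SZ-A 600, n = 8) and 0.084 (SZ-A 400, n = 7), so the linear relation rests on part of the libraries. Both tested pairs were chosen after the shares were seen, so their p-values are not independent evidence, and shares of 1 library share its depth.

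**Figure D4:**
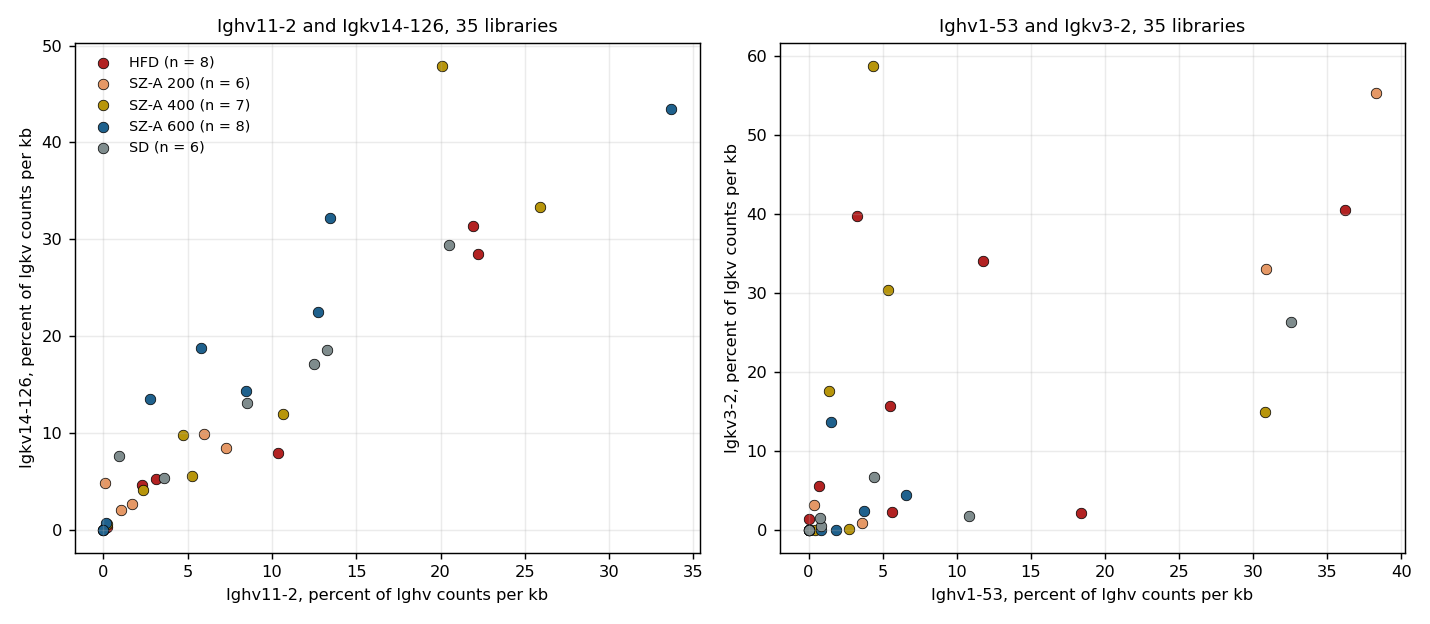
Share of Igkv14-126 against Ighv11-2 (left) and of Igkv3-2 against Ighv1-53 (right) per library, in percent of the kappa and heavy variable counts per kb, coloured by group. The left pair lies along a line (r = 0.92), and the right pair scatters more (r = 0.602).

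Across the 36 libraries on the high-fat diet, log2 CPM of Igkc followed that of Jchain, the joining chain of secreted IgM and IgA made in plasma cells, with r = 0.965 and rho = 0.939. It followed the B cell membrane genes Ms4a1 (CD20; r = 0.797, rho = 0.759) and Cd79a (part of the B cell receptor; r = 0.791, rho = 0.752) less closely in value, and the difference between these correlations was not tested. The permutation p was 1e-05 for each, the smallest possible with 100000 resamples (1.25e-05 and 1e-05 adjusted over the 5 relations for r and rho). Without the 2 libraries farthest from the median, r was 0.952, 0.766 and 0.732 for Jchain, Ms4a1 and Cd79a. Within set 1 it was 0.976, 0.819 and 0.779, and within set 2 it was 0.959, 0.835 and 0.829. Within the SZ-A 600 group (n = 9) r was 0.714, -0.026 and 0.468, so there the relation with Ms4a1 was not seen.

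Differences were tested with edgeR's quasi-likelihood test on all 20218 genes that passed the filter on low counts, with Benjamini-Hochberg adjustment, and a gene was called at an adjusted p under 0.05. Of the members, 108 passed that filter: 11 constant, 44 heavy variable, 50 kappa variable, 2 lambda variable and 1 joining gene. A low variable gene passes only where some libraries hold it, and variable genes are carried by the same antibody mRNAs as the constant genes, so counts and medians of members are a description. Log2 fold changes are on the scale of fitted counts. The 3 doses and the trend share the HFD libraries.

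In HFD libraries against SD libraries, few antibody genes differed. Of the 108 members, 8 were called higher (7.41%) and 0 lower, against 18.4% of all tested genes higher and 13.3% lower. Without adjustment 19 were higher and 1 lower at p under 0.05. The median log2 fold change was 0.97 over the members and -0.05 over all tested genes. Igha had 1.03, 8.92 and 91.3 normalised CPM in the lowest, median and highest HFD library, and 0.271, 2.15 and 6.83 in SD. The HFD median lay above the highest SD library, but the groups overlapped. Its log2 fold change was 3.02 (SE 0.91, adjusted p = 0.0108), with 2.74 (adjusted p = 0.159) within set 1 and 2.51 (adjusted p = 0.154) within set 2. Ighg1 reached 151 normalised CPM in the HFD group, where its median was 0.908, while it was at 0 in 4 of 7 SD libraries and reached 4.24 there (log2 fold change 5.28, SE 2.09, adjusted p = 0.0496). Ighm (1.61, SE 0.71, adjusted p = 0.0769) and Igkc (1.23, SE 0.99, adjusted p = 0.341) did not pass. The result for Ighm turned with the setting: it was called in 6 of 14 alternatives, among them the fit without the libraries with RNA of another tissue (1.87, adjusted p = 0.0442) and the DESeq2 Wald test (1.56, adjusted p = 0.0398), and not within set 1 (2.00, adjusted p = 0.114) or set 2 (1.29, adjusted p = 0.471). Also not called were Ighg2b (1.45, adjusted p = 0.398), Ighd (1.08, adjusted p = 0.216), Ighg3 (1.23, adjusted p = 0.542), Ighg2c (-1.75, adjusted p = 0.328), Iglc1 (-0.19, adjusted p = 0.906), Iglc2 (0.11, adjusted p = 0.932) and Iglc3 (0.45, adjusted p = 0.767).

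The other called members of this comparison were 6 variable genes, each held mainly by a few HFD libraries. Igkv4-63 was at 0 in 3 of 10 HFD libraries, with a median of 0.164 and a highest value of 4.19 normalised CPM, and at 0 in 5 of 7 SD libraries with at most 0.0877 (log2 fold change 5.25, SE 1.62, adjusted p = 0.0124). Ighv5-4 was at 0 in 4 HFD libraries and reached 8.65 normalised CPM, against 4 SD libraries at 0 and at most 0.116 (4.84, SE 1.73, adjusted p = 0.0298). At such SD levels, Igkv4-63 and Ighv5-4 passed the filter only through libraries of other groups and could hardly be lower in HFD. Their folds and p-values are a description. Igkv17-127 was at 0 in 6 of 10 HFD libraries and reached 33.3 normalised CPM, against at most 0.698 in SD (5.02, adjusted p = 0.0383). Thus the median HFD library held none of it. Igkv8-30 (3.45, adjusted p = 0.0403), Ighv1-52 (4.71, adjusted p = 0.0414) and Igkv17-121 (4.31, adjusted p = 0.049) were the others. Igkv17-121 and Igkv17-127 are 97.5% identical, Ighv1-52 is 98.6% identical to Ighv1-61 and Ighv5-4 95.5% to Ighv5-6, so reads of these may be shared with their copies. The count of 8 was 2 without HFD library 4, 3 without HFD library 7 or SD library 7, 4 without SD library 4, and 5 without HFD library 3 or SD libraries 2, 3 or 6. Within set 1 it was 0 (with 2 lower), within set 2 it was 0, on log2(FPKM + 1) and log2(FPKM + 0.1) it was 0 and 2, and the Ighg1 call held in 6 of 17 fits that left out 1 library.

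With SZ-A 200 against HFD, 0 of 108 members were called in either direction, against 0.00989% of all tested genes higher and 0% lower. At an unadjusted p under 0.05 edgeR found 7 higher and 6 lower, the DESeq2 Wald test called 0, and the lowest adjusted p was 0.465. The median log2 fold change of the members was 0.15, and the constant genes ran from -1.81 to 1.64. The sign of that median was not stable. It was -1.06 without SZ-A 200 library 8, -1.07 within set 1 and 1.00 within set 2, and with all libraries kept it was -0.05 by DESeq2 and -0.03 with library set as a term. Within each set 0 members were called.

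With SZ-A 400 against HFD, 1 member was called lower and 0 higher, against 0.406% of all tested genes lower and 2.46% higher. This was Ighv5-16, at 0 in 6 of 8 SZ-A 400 libraries and at most 0.0815 normalised CPM there, against 3 of 10 HFD libraries at 0 and a highest value of 4.34 (log2 fold change -5.17, SE 1.40, adjusted p = 0.0361). At such SZ-A 400 levels, Ighv5-16 passed the filter only through libraries of other groups, so its fold and p-value are a description. The median of the members was -0.70, and the constant genes ran from -3.20 to 0.95. The call of Ighv5-16 was lost in 10 of 18 fits that left out 1 library and without the libraries with RNA of another tissue. Within each set 0 members were called, with medians of -1.35 in set 1 and -0.93 in set 2.

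With SZ-A 600 against HFD, heavy and kappa chain genes were lower. Of the 108 members, 32 were called lower (29.6%) and 0 higher, against 6.47% of all tested genes lower and 5.12% higher. The 32 were 3 constant, 15 heavy variable and 14 kappa variable genes, and 103 of the 108 members had a negative log2 fold change. The median was -3.26 over the members, also with the 5 members at 0 in all SZ-A 600 libraries put at their bound, and 0.06 over all tested genes. Ighm, with the levels given above, had a log2 fold change of -2.08 (SE 0.66, adjusted p = 0.0362), and Igkc one of -3.10 (SE 0.98, adjusted p = 0.0351). Ighg2b had at most 2.44 normalised CPM with SZ-A 600 and a median of 0.670, while its HFD median was 3.62 and its highest HFD value 61.3 (-4.0, SE 1.35, adjusted p = 0.0457). The groups overlapped in each of these 3 genes. Not called were Ighg1 (-5.05, adjusted p = 0.0645), Ighd (-1.80, adjusted p = 0.0569), Iglc2 (-2.26, adjusted p = 0.0765), Iglc1 (-2.23, adjusted p = 0.157), Ighg2c (-2.59, adjusted p = 0.211), Igha (-0.95, adjusted p = 0.417), Ighg3 (-0.59, adjusted p = 0.807) and Iglc3 (0.30, adjusted p = 0.866). The value of Ighd rested on HFD library 7, without which it was -0.24 (adjusted p = 0.779).

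Several variable genes found in HFD libraries were near 0 in the SZ-A 600 libraries. Ighv5-16 was at 0 in all 9 SZ-A 600 libraries and averaged 0.708 normalised CPM in HFD, at least 77.8-fold lower when SZ-A 600 is set to the level of 3 counts over the group (adjusted p = 0.00661). Igkv3-4 was likewise at 0 in 9 of 9, against a mean of 1.49 normalised CPM in HFD, at least 164-fold lower (adjusted p = 0.0164). Both were also at 0 in 3 of 10 HFD libraries. Without counts in the SZ-A 600 group, they passed the filter only through libraries of other groups and could only be lower. Their folds and p-values are therefore a description. Ighv3-6, which led 4 libraries, had at most 0.299 normalised CPM with SZ-A 600, against a median of 0.470 and a highest value of 32.7 in HFD (log2 fold change -5.77, SE 1.38, adjusted p = 0.00979). Igkv17-121 was at 0 in 7 of 9 SZ-A 600 libraries, against 2 of 10 HFD libraries (-8.07, SE 1.97, adjusted p = 0.0111), and Ighv6-6 in 5 of 9 against 3 of 10 (-5.35, SE 1.39, adjusted p = 0.0142).

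The 2 most frequent pairs had unlike values here, and the difference between them was not tested. Igkv3-2 was at 0 in 6 of 9 SZ-A 600 libraries and reached 5.00 normalised CPM, against a median of 3.08 and a highest value of 206 in HFD (log2 fold change -6.01, adjusted p = 0.0414). Ighv1-53 reached 0.447 normalised CPM with SZ-A 600 and 39.4 with HFD (-5.92, adjusted p = 0.0418). Ighv11-2 had a median of 0.363 normalised CPM with SZ-A 600 and 0.918 with HFD (-2.50, adjusted p = 0.0931), and Igkv14-126 one of 1.29 with SZ-A 600 and 1.36 with HFD (-2.09, adjusted p = 0.195), and neither passed. As a share of the kappa variable genes, Igkv14-126 stood at 14.4% with SZ-A 600 and 4.92% with HFD at the median. Their ranges overlapped.

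The count of 32 was 11 without HFD library 4, 14 without SZ-A 600 library 6, 17 without SZ-A 600 library 5 or HFD library 7, 19 without HFD library 3, 20 without SZ-A 600 library 4 or 7, and 21 without SZ-A 600 library 3. It was 36 within set 1, where Ighm had a log2 fold change of -1.84 and Igkc one of -3.25, and 0 within set 2, where they had -2.50 and -2.86, and a test of the difference between sets called 0 members (10 at an unadjusted p under 0.05). On log2(FPKM + 1) and log2(FPKM + 0.1), where single high libraries weigh less, 0 and 2 members were called, and on the first scale Ighm had -1.79 (limma, adjusted p = 0.0566) and Igkc -1.79 (adjusted p = 0.233). Of the 19 fits that left out 1 library, Ighm kept its call in 12, Igkc in 10 and Ighg2b in 4.

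**Figure D5:**
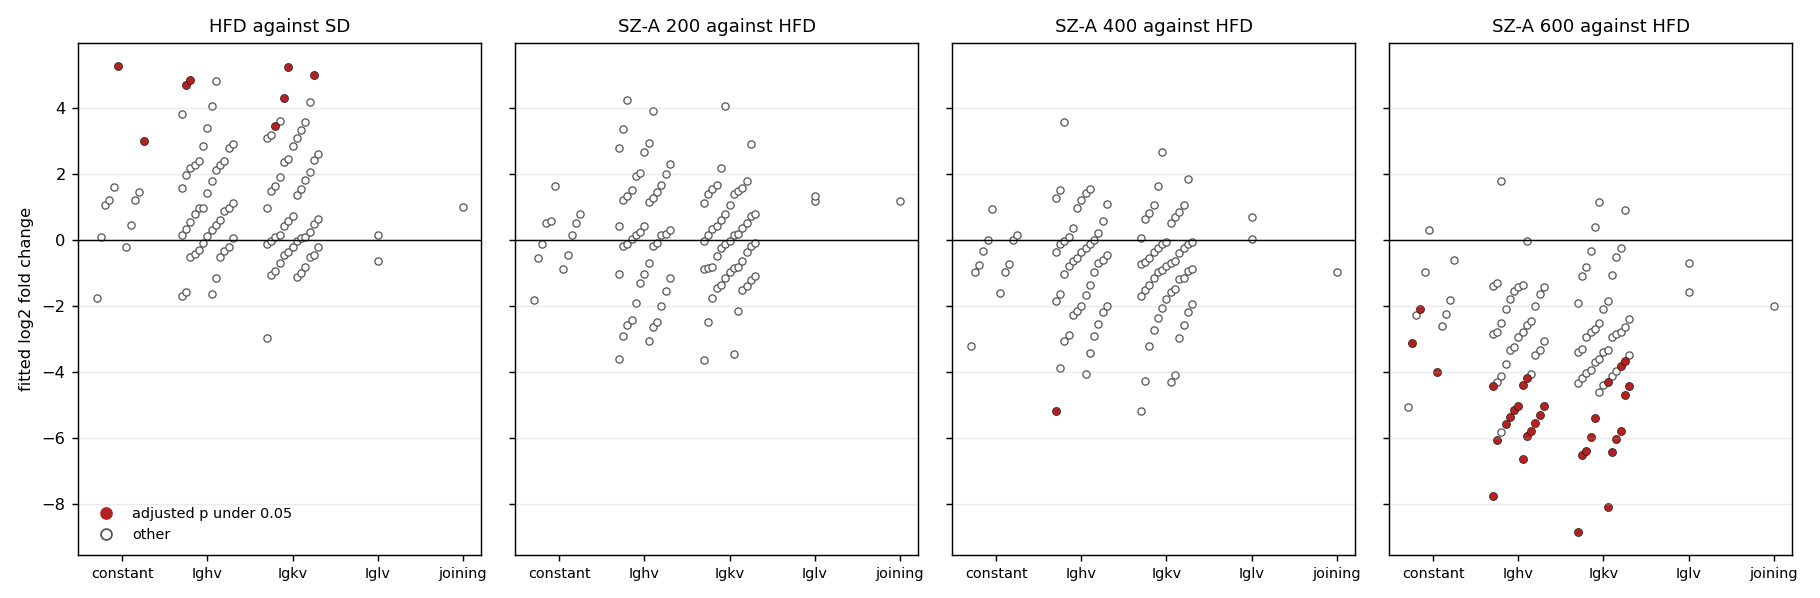
Fitted log2 fold changes of the 108 tested members in the comparisons of HFD with SD and of each SZ-A dose with HFD, by kind of gene; filled red points are called members, open points the others. Medians over the members are 0.97, 0.15, -0.70 and -3.26 from left to right, and fitted values of genes at 0 in all SZ-A 600 libraries are not bounds.

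A linear trend over the high-fat groups at 0, 200, 400 and 600 mg/kg/day called 43 members lower (39.8%) and 0 higher, against 7.86% of all tested genes lower and 6.82% higher. They were 4 constant, 19 heavy variable and 20 kappa variable genes, and 105 of 108 members had a negative slope, with a median of -1.04 per 200 mg/kg/day (0.02 over all tested genes). Ighm had a slope of -0.75 (SE 0.21, adjusted p = 0.0166), Igkc -1.08 (SE 0.31, adjusted p = 0.0194), Ighg2b -1.28 (adjusted p = 0.0367) and Ighg1 -1.65 (adjusted p = 0.0482). Among the variable genes Igkv17-121 (-2.96), Ighv5-16 (-2.48), Igkv16-104 (-2.33), Ighv1-69 (-2.15) and Ighv3-6 (-2.06) had the smallest p (adjusted p 0.00435 to 0.00697). Ighv5-16, without counts in the SZ-A 600 group, could hardly slope upward, so its slope and p-value are a description. The medians of summed antibody CPM did not fall at each step (673, 553, 634 and 246 from 0 to 600 mg/kg/day). The count of 43 was 15 without HFD library 4, 19 without SZ-A 600 library 6, 24 without HFD library 7 and 27 without SZ-A 600 library 7. It was 35 of 138 tested members within set 1, of which 21 were among the 43, and 0 of 139 within set 2. Within sets 1 and 2 the slope of Ighm was -0.56 (adjusted p = 0.0556) and -0.97 (adjusted p = 0.19), that of Igkc -1.01 (adjusted p = 0.0674) and -1.06 (adjusted p = 0.247), that of Ighg2b -1.44 (adjusted p = 0.0466) and -1.16 (adjusted p = 0.389), and that of Ighg1 -1.45 (adjusted p = 0.0928) and -2.68 (adjusted p = 0.185). The Ighg1 call held in 12 of 36 fits that left out 1 library.

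Genes of the cells that make antibodies were set beside these values. Of 11 B cell genes, 6 were called lower with SZ-A 600, among them Ms4a1 (-3.54), Fcer2a (-3.02), Pax5, the factor that keeps B cell identity (-2.94), Cd79a (-2.52) and Bank1 (-1.64), with adjusted p from 0.0192 to 0.0457. Of 12 plasma cell genes, 1 was called lower, Jchain, which had 5.13, 10.7 and 19.2 normalised CPM in the lowest, median and highest SZ-A 600 library and 2.84, 25.2 and 348 in HFD (-2.72, SE 0.87, adjusted p = 0.0364). Macrophage genes were also lower, in 5 of 8, while 0 of 10 T cell genes, 0 of 5 tested lymphoid stroma genes and 0 of 6 adipocyte genes were called. The B cell list summed to 10.1 to 27.2 normalised CPM (median 13.4) with SZ-A 600 and 6.54 to 351 (median 28.4) in HFD, and the macrophage list to 259 to 2645 (median 1039) and 556 to 6216 (median 4208). No defining marker of B cells was at 0 across a group. In HFD against SD, 1 B cell gene (Cd22, 2.85, adjusted p = 0.00571) and 8 of 8 macrophage genes were called higher, with 1 of 10 T cell genes, 0 of 5 lymphoid stroma genes and 1 of 6 adipocyte genes (Lep). Of the plasma cell genes, Slamf7 (3.18), Sdc1 (2.32), Prdm1, the factor of plasma cell fate (1.57), and Txndc5 (0.54) were called higher and Irf4 lower (-2.75), and several of these are used by other cells as well. Within set 1, with SZ-A 600 against HFD, 0 B cell, 3 plasma cell and 5 macrophage genes were called lower, 1 of 10 T cell genes was lower and 5 of 6 adipocyte genes were higher. Within set 2, 0 genes of these lists were called in that comparison. The median log2 fold change of the 11 B cell genes was -0.99 within set 1 and -2.38 within set 2. The B cell list summed to a median of 16.3 normalised CPM with SZ-A 600 and 42.5 in HFD within set 1, and to 12.8 and 20.0 within set 2. In HFD against SD, 1 B cell and 8 of 8 macrophage genes were called higher within set 1, and 0 and 1 within set 2. Within set 1, which held 2 SD libraries, 1 of 6 adipocyte genes was also higher and 5 were lower (median log2 fold change -1.17). There 5 plasma cell genes were higher and 2 lower, and 1 of 10 T cell genes was higher. Within set 2, 0 adipocyte, plasma cell and T cell genes were called. Shares of all tested genes called within a set are not given, so a broad shift within a set cannot be told from these list counts. The part of cell numbers in the antibody values was not tested.

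Lists of the antibody pathway were described likewise. Of 8 tested genes of recombination and class switching, Polh (0.51), Exo1 (1.77) and Apex1 (0.59), which repair DNA in all dividing cells, were higher in HFD than in SD, and Polh (-0.45) and Exo1 (-1.85) were lower with SZ-A 600 than with HFD. Of the genes that act in developing B cells, Rag2 was at 0 in all HFD, SZ-A 200, SZ-A 600 and SD libraries, and Igll1 at 0 in all HFD, SZ-A 200 and SZ-A 400 libraries. Levels of Rag1, Dntt, Vpreb1 and Vpreb3, also on that list, are not given here. Of 12 Fc receptor and transport genes, the IgG receptor genes Fcgr1 (2.96), Fcgr3 (2.77) and Fcgr4 (3.12) and their signalling chain Fcer1g (2.88) were higher in HFD than in SD, and Pigr (-2.85), which carries IgA and IgM across epithelium, and Fcamr (-1.72) were lower. With SZ-A 600 against HFD, Fcgr1 (-2.10) and the IgM receptor gene Fcmr (-2.56) were lower and Pigr (2.55) was higher. Pigr is an epithelial gene, its highest SZ-A 600 value was 10.0 normalised CPM, in library 6 (one of those with RNA of another tissue), against at most 0.666 in HFD, and the part of other tissue in it was not tested. Of 14 tested B cell growth factor and receptor genes, 5 were higher in HFD than in SD, among them Tnfrsf13b, a receptor for the survival factor BAFF (2.07), Cxcr4 (1.55), Cd40 (1.47) and Ccr7 (1.72), and 2 were lower with SZ-A 600 than with HFD, Cd40 (-1.10) and Cxcr5 (-2.18). With SZ-A 200 and SZ-A 400 against HFD, 0 genes of these 9 lists were called with all libraries, while within set 1 alone 4 and 2 of the 6 adipocyte genes were higher. Within set 1, HFD against SD had 2 recombination, 5 Fc and 4 growth factor list genes higher and 1, 3 and 1 lower. SZ-A 600 against HFD had 1, 1 and 0 higher and 2, 3 and 2 lower there. Within set 2, 0 genes of these pathway lists were called in either comparison. Of all tested genes with all libraries, 18.4% were higher and 13.3% lower in HFD than in SD. The shares were 5.12% and 6.47% for SZ-A 600 against HFD. Such shares within a set are not given, so the list counts within sets cannot be set against them.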

How the data were processed

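Poly(A)-selected RNA was made into strand-specific libraries read as 150 bp pairs, per the labels' protocols. Read counts per gene, which the authors deposited according to the file headers, were analysed without change. FPKM values that the authors deposited beside them entered only alternatives, as log2(FPKM + 1) or log2(FPKM + 0.1). The sources used here name no aligner, counting program or strand setting. Coordinates in the files differ from the mm10 genome named in the labels and are printed as the files give them, while sequences are from GENCODE M21 (GRCm38), matched by gene for 164 of 164 variable and 9 of 9 joining members.

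All 43 libraries entered 1 edgeR 4.0.16 fit (R 4.3.3; TMM, filterByExpr, robust quasi-likelihood F test), with p-values adjusted over 20218 genes. Alternatives used limma 3.58.1 and DESeq2 1.42.0. The fit was tested on simulated data with independent genes and no library sets, unlike antibody genes carried by the same mRNAs. There it recovered 35.8% of 2-fold and 75.8% of 8-fold changes for HFD against SD. For SZ-A 600 against HFD it recovered 44.8% and 83.3%. Shares are of counts per kb of the length in the files, relations use log2(CPM + 0.1) or shares, and Python 3.11.15, scipy 1.17.1, biopython 1.88 and matplotlib 3.10.9 did the rest. Named were all constant genes, in each comparison the up to 5 called variable or joining genes with the smallest p per direction, the leading genes of each library and those with the highest median shares. Further called genes are named outside that rule, after their values were seen. The members and lists were chosen with earlier results of these data known. Same-numbered libraries deviated together (correlation over 0.1) in 3 of 7 to 6 of 8 pairs, with correlations of -0.445 to 0.71. The library sets follow these numbers, as set 1 held libraries 1 to 5 of each high-fat group and 1 and 2 of SD. The part of the sets in these correlations was not tested. In the main fit the numbers were not treated as pairs, and a replicate block was used as an alternative. No 2 libraries were identical, and 0 columns were left unused. Values of the cell lists, pathway lists and switched classes within the library sets were added after seeing the data. The values of 1 gene of the B cell list are not reported here.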

Additional observations from a re-analysis of the deposited data

Results flagged for a closer look

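Within groups, single libraries stood far from the rest by Dixon's criterion in 9 of 25 library measures and 20 of 140 gene levels by group. Chance alone would mark about 1 group in 20 if the values were normally distributed. The library measures were not on a log scale, and several flagged genes had a group median of 0. These counts can therefore not be set against that rate, and the cause of these values was not tested. SZ-A 200 library 8 had an antibody sum of 14598 CPM, far above the other 8. Ighm as a percentage of the heavy constant genes was far below the group in HFD library 8 (80.5), SZ-A 200 library 7 (78.5), SZ-A 400 library 7 (72.8) and SD library 6 (55.3). The lambda percentage was far above the group in HFD library 9 (28.3) and SZ-A 600 library 1 (48.6). HFD library 8 also stood apart by its leading heavy (92.3%) and kappa (66.2%) variable gene.

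Among constant genes, in normalised CPM, Ighd was high in HFD library 7 (47.9), Ighg1 in SD library 5 (4.24), and Ighe in HFD library 4 (3.04), SZ-A 400 library 6 (0.361), SZ-A 600 library 8 (0.0261) and SD library 6 (0.344), while Iglc2 was low in SD library 7 (0.0542).

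Among variable genes, SZ-A 200 library 8 was high in Igkv17-121 (41.4), Ighv1-52 (1.55) and Ighv5-16 (0.376), and SZ-A 200 library 1 in Ighv5-4 (5.47). SZ-A 400 library 6 was high in Ighv1-52 (2.07) and Ighv5-4 (0.554), and SZ-A 400 library 5 in Igkv16-104 (0.217). HFD library 4 was high in Ighv1-69 (5.02), SZ-A 600 library 3 in Igkv4-63 (0.864) and SZ-A 600 library 2 in Igkv8-30 (1.20). In the SD group these were library 2 for Igkv17-127 (0.698), library 3 for Igkv17-121 (1.23) and library 4 for Igkv4-63 (0.0877).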

How the results depend on the processing

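Counts of called members, given as HFD higher than SD, SZ-A 600 lower than HFD and trend lower, were 8, 32 and 43 as reported. They were 8, 38 and 39 by the DESeq2 Wald test, 6, 32 and 43 with DESeq2 size factors, 11, 41 and 48 with library set as a term, 9, 30 and 34 without the libraries with RNA of another tissue, and 10, 36 and 33 without SZ-A 200 library 8. With only the groups compared, where fewer members pass the filter, they were 2 of 53, 7 of 21 and 27 of 86 tested, against 108 tested in each as reported. They fell to 2, 2 and 3 on log2(FPKM + 0.1), 0, 0 and 2 on log2(FPKM + 1), and 0, 0 and 0 within set 2. The replicate block gave 6, 22 and 26; with it Ighm of HFD against SD was called (1.85, adjusted p = 0.0337), while Ighg1 of HFD against SD (3.79, adjusted p = 0.242), Igkc of SZ-A 600 (-2.60, adjusted p = 0.086) and the trends of Igkc (-0.82, adjusted p = 0.0836) and Ighg1 (-0.37, adjusted p = 0.799) were not, and the SZ-A 200 median was -0.52. They were 13, 40 and 46 without those libraries and with the set term, chosen after seeing the data, and 7, 28 and 49 with no filter. Lower in HFD than in SD were 0 as reported, 2 within set 1 and 4 with no filter. The 1 member lower with SZ-A 400 became 2 without SZ-A 200 library 8 and 0 in 8 settings, among them the replicate block. Leaving out 1 library gave 2 to 10, 11 to 44 and 15 to 52, and 0 to 1 for HFD lower and SZ-A 400 lower. Ratios of heavy to light and variable to constant genes move when counts are not divided by length, since the genes differ in length.

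Single constant genes that were not called changed sign in some settings, and the cause was not tested. For HFD against SD, Ighg2c was 2.62 by DESeq2, 0.67 with the replicate block and 4.64 within set 1, Iglc1 was 0.72 with the replicate block, 0.04 without the libraries with RNA of another tissue and 0.06 with the set term added, and Iglc2 was 0.00 on log2(FPKM + 1) and -0.30 within set 1. For SZ-A 600 against HFD, Igha was 0.79 within set 2, Ighg3 was 0.39 with the set term, 1.17 within set 1 and 0.21 with both changes, and Iglc3 was -0.34 with the replicate block, -0.25 and -0.50 on the log2 FPKM scales and -3.99 within set 2. For the trend, Igha was 0.19 within set 2, Ighg3 was 0.20 with the set term, 0.45 within set 1, 0.11 without SZ-A 200 library 8 and 0.05 with both changes, and Iglc3 was 0.38 within set 1 and 0.00 without that library. With 1 library left out, HFD against SD ran from -2.73 to 2.74 for Ighg2c, -0.62 to 0.35 for Iglc1, -0.29 to 0.46 for Iglc2 and -0.49 to 1.77 for Ighd; SZ-A 600 from -2.63 to 0.36 for Ighg3 and -1.62 to 0.71 for Iglc3; and the trend from -0.72 to 0.17 for Ighg3 and -0.64 to 0.06 for Iglc3. Igha of HFD against SD kept its call in 17 of 17 such fits and in 11 of 14 other settings. It was not called within either set or on log2(FPKM + 1) (1.52, limma, adjusted p = 0.0505). With 18 heavy variable counts in the poorest library, depth limits which gene can be said to lead there.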
